A study of Homo sapiens with 12 samples.

Results

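The regions described here are exons that some transcripts of AsPC-1 cells skip, that are longer than 30 nt, and whose length is not a multiple of 3. They were taken by length and read depth alone: of 24609 exon skips in the deposited splicing table, 13920 have such an exon, and 12062 of these, from 10594 exons of 4913 genes, had a mean of at least 20 reads per library over the junctions that include and the junction that skips the exon. A skip is one exon with one pair of neighbouring exons, so 1166 of the 10594 exons enter in more than 1 skip, and such skips share reads. AsPC-1 is a long-established human cell line derived from pancreatic cancer. It received control siRNA (siControl) or siRNA that targets ARNT (siARNT), was split the next day, and kept at 21% O2 (normoxia) or placed in 1% O2 for 24 h (hypoxia). Poly(A) RNA was taken 48 h after transfection, which gave 4 groups of 3 libraries (A, B and C), siControl in normoxia and hypoxia and siARNT in normoxia and hypoxia. All 12 libraries come from 1 cell line and from transfected wells, so the p-values below measure the spread between wells.

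An exon whose length is not a multiple of 3 moves the reading frame when it is left out or put in. Downstream codons are then read in another frame, and a stop codon usually follows soon. When such a stop lies well upstream of the last exon junction, the transcript is a substrate of nonsense-mediated decay (NMD), the pathway in which UPF1 and its partners remove messages with premature stops. Genes of splicing factors are known for carrying exons of this kind, called poison exons, whose inclusion lowers the amount of productive mRNA. ARNT is the partner with which the HIF alpha subunits bind DNA in hypoxia, and the comparisons ask how oxygen and the loss of this partner go with the use of these exons.

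The 6 exons below carry the frame change in its plain form and belong to the results that follow. The first 30 bases of each line are the end of the upstream exon in the annotated transcript, and the line runs to the first stop codon in frame, in capitals. In the first 5 the exon follows directly after those 30 bases. In ZFAND4 the exon is left out, and the next exon follows instead. Sequences were read from the GENCODE 29 transcripts of GRCh38, for exons of the same gene, length and flanking intron lengths as in the deposited table.
SAT1: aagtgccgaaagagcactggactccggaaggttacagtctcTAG
EIF4A2: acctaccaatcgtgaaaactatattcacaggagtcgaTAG
NABP1: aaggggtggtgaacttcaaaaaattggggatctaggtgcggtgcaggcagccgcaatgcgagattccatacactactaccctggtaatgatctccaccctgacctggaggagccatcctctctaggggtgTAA
PPP1R12B: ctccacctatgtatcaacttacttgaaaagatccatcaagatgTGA
RBM39: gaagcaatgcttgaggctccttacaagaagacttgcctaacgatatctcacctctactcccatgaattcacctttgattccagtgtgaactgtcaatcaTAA
ZFAND4 without its exon: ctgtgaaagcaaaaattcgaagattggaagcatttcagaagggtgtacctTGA
ZFAND4 exon of 76 nt: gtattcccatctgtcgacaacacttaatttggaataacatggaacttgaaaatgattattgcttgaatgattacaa

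In GRCh38 the SAT1 exon of 110 nt lies at chrX:23784294-23784403 on the plus strand, and the stop ends 14 bases into it. The reading frame then holds 71 codons in place of 171. The EIF4A2 exon of 107 nt lies at chr3:186788310-186788416 (plus strand), with its stop ending at base 10 and 363 codons in place of 408. The NABP1 exon of 104 nt at chr2:191682492-191682595 (plus strand) leaves 134 of 204 codons. The PPP1R12B exon of 41 nt at chr1:202443087-202443127 (plus strand) leaves 560 of 1043. The RBM39 exon of 73 nt at chr20:35740525-35740597 (minus strand) leaves 40 of 530. Skipping the ZFAND4 exon at chr10:45652984-45653059 (minus strand) leaves 68 of 727. In all 6 the stop lies at least 50 nt upstream of the last exon junction, from 97 nt in EIF4A2 to 1765 nt in ZFAND4.

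The knockdown was visible in the gene counts. ARNT stood at 62.4 ± 1.53 CPM (counts scaled to library size; SD, n = 3) in siControl and 13.4 ± 0.56 in siARNT under normoxia, and at 69.1 ± 3.81 and 15.3 ± 1.04 under hypoxia. It fell by 2.22 (normoxia) and 2.17 (hypoxia) on the log2 scale with siARNT (edgeR quasi-likelihood test, adjusted p 8.99e-09 and 2.65e-09). The libraries held 38.53 to 84.34 M gene counts. All 8 epithelial markers of the line were at 1 CPM or more in every group. A list of 17 markers covered fibroblasts, leukocytes, endothelium, acinar and islet cells. Of these, PECAM1 had no value, and 0 of the others reached 1 CPM. Across the skips, 149 to 412 frame-shifting exons per library had 0 reads on the skipping junction where at least 5 were expected from the share over all libraries. Hypoxia siARNT replicate A stood apart with the 149, and the other 11 libraries had 352 or more.

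Most frame-shifting exons were nearly always included. Percent spliced in (PSI) is the mean of the 2 inclusion junctions divided by that mean plus the skipping junction, given here as a fraction. The median PSI over the 12 libraries was 0.95, as it was 0.949 for the 8933 frame-preserving exons of the same depth. PSI was at least 0.9 in 63.2% of the members, under 0.1 in 12.5%, and between these in 24.3%. Exon lengths ran from 31 to 5336 nt with a median of 113 nt, and the remainder over 3 was 2 in 6072 members and 1 in 5990. At the depth limit, ICE2 (83 nt), NPTN (104 nt) and PDPR (259 nt) were just inside at the limit itself, and ZC3H11A, ZNF664 and SLC35C2 were just outside with 19.96. At the length limit, 53 skips of 31 nt were inside, and 218 deep skips of up to 30 nt were outside.

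**Figure D1:**
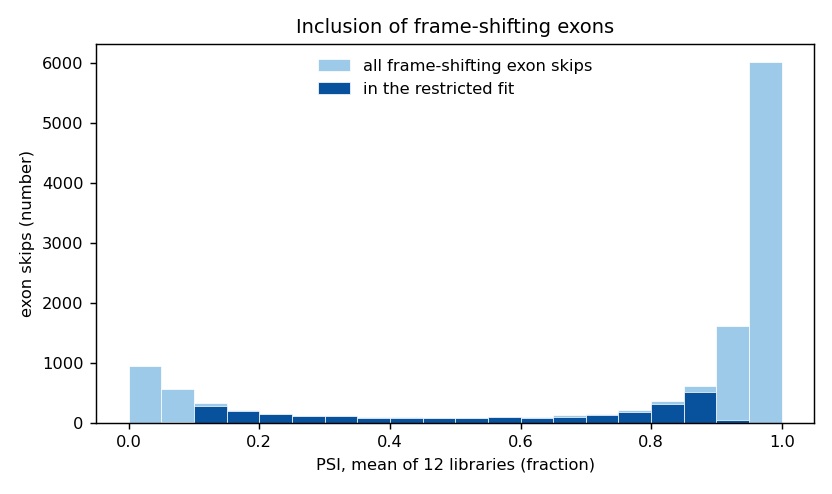
Number of frame-shifting exon skips (vertical axis) by mean PSI over 12 libraries (horizontal axis, fraction, steps of 0.05), for all 12062 members (light) and for the 2607 in the restricted fit described below (dark). Most members lie at 0.9 or above, with a second, smaller group under 0.1.

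Annotation separated the members by level. Of the 8678 skips that matched a GENCODE 29 exon by structure, 5702 lay within the coding sequence, with a median PSI of 0.974. Another 1043 lay in transcripts annotated only as NMD targets, with a median PSI of 0.204, and 662 lay in the 5′ UTR, where an exon's length shifts no frame (median PSI 0.506). Skipping a coding exon was predicted to give an early stop in 4281 members (median PSI 0.976). Inserting an exon into a coding transcript was predicted to do so in 949, and these were the least included, with a median PSI of 0.073. An early stop here is one at least 50 nt upstream of the last junction. The other 3384 members matched no annotated structure and carry no prediction.

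The first test took every skip with at least 12 reads of the rarer form over all libraries: 11182 frame-shifting members (880 were below) among 19953 skips of all lengths. It called 2 frame-shifting exons for hypoxia in siControl (0.02% of all skips tested were called), 0 for hypoxia in siARNT (0.0%), 1 for siARNT in normoxia (0.015%), 1 for siARNT in hypoxia (0.01%) and 2 for the interaction of oxygen and siRNA (0.0301%). For hypoxia in siARNT, 476 of the 11182 members had an unadjusted p under 0.05 with edgeR, beside 877 of all 19953 skips. DESeq2 called 17 members and limma 1. The edgeR calls in all comparisons came from 2 exons. ARPC1B, a subunit of the Arp2/3 complex that branches actin, has a 223-nt exon, and RPL10, a protein of the large ribosomal subunit, has one of 100 nt.

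Both exons had a group with no skipping read at all. Reads over the ARPC1B skip were 85, 62 and 57 in normoxia siControl, 171, 188 and 98 in normoxia siARNT, 0, 0 and 0 in hypoxia siControl, and 56, 78 and 128 in hypoxia siARNT. The inclusion count in the 3 libraries at 0 was 3470, 3476 and 2020, so the group's 0 allows a skipped share of up to 0.0335%, against 2.1 to 2.31% in the other groups. For RPL10 the counts were 0, 0 and 0 in normoxia siControl, 140, 113 and 71 in normoxia siARNT, 145, 115 and 81 in hypoxia siControl, and 98, 99 and 88 in hypoxia siARNT. Its 0 allows up to 0.00871%, against 0.798 to 1.09% elsewhere. The limits cover counting error only. Mean PSI differed by 0.022 in ARPC1B and by at most 0.009 in RPL10 between the groups compared. Junctions at 0 were common among the members: 1778 of those tested (15.9%) had at least 1 library with an unexpected 0 on 1 of their 3 junctions, and in 84 all 3 libraries of a group had 0 skipping reads while another group had 5 or more in each. These groups were hypoxia siControl in 48, normoxia siControl in 33, normoxia siARNT in 16 and hypoxia siARNT in 0. RPL10 belongs to a family with many processed copies, so its reads are uncertain, and what sets these junctions to 0 was not tested.

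**Figure D2:**
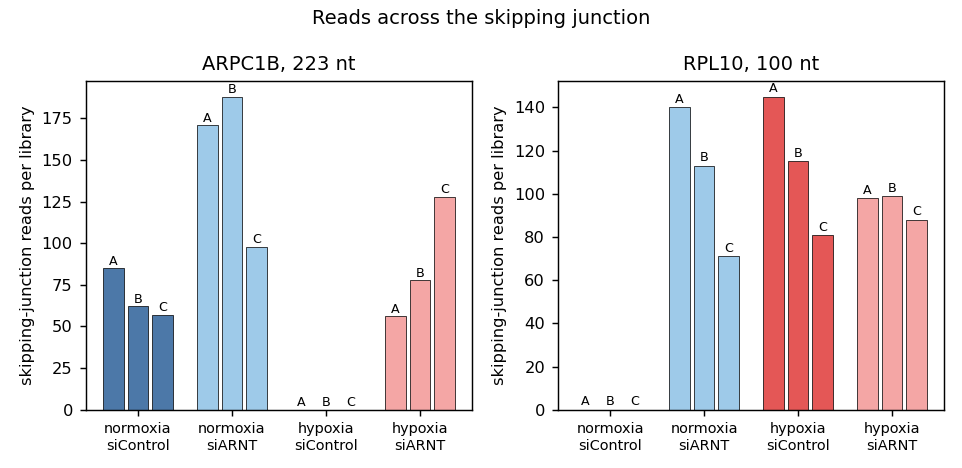
Reads across the skipping junction (vertical axis, reads per library) of the ARPC1B and RPL10 exons in the 12 libraries (bars, letters A to C), by group. The 3 hypoxia siControl libraries are at 0 for ARPC1B and the 3 normoxia siControl libraries for RPL10, while every other library has 56 or more reads.

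Because of these zeros and of exons near full inclusion, a second fit, chosen after seeing the data, kept only skips whose rarer form held at least 10% of the reads and that had no unexpected 0. It holds 4865 skips, 2607 of them frame-shifting (2324 exons, 1609 genes), and is called the restricted fit below. A true switch to 0 in 1 group cannot enter it. Most of the called frame-shifting exons fell, and siARNT gave more calls than hypoxia. With siARNT in normoxia, 106 members were called, 23 up and 83 down (4.79% of all skips in this fit were called, 1.19% up and 3.6% down). With siARNT in hypoxia, 64 were called, 10 up and 54 down (2.84% in all, 0.617% up and 2.22% down). Hypoxia in siControl gave 30, of which 9 rose and 21 fell (1.32%, 0.349% and 0.966%), and hypoxia in siARNT gave 6, of which 2 rose and 4 fell (0.514%, 0.144% and 0.37%). The members' own shares were 4.07%, 2.46%, 1.15% and 0.23%, in no comparison above the share of all skips. The difference from other skips was not tested. The differences in count between comparisons were not tested. PSI values of the 3 against 3 libraries did not overlap in 21% of the members for siARNT in normoxia (22.1% of all skips in the fit), 17.5% for siARNT in hypoxia (18.5%), 15.8% for hypoxia in siControl (16.9%) and 13.5% for hypoxia in siARNT (14.6%).

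**Figure D3:**
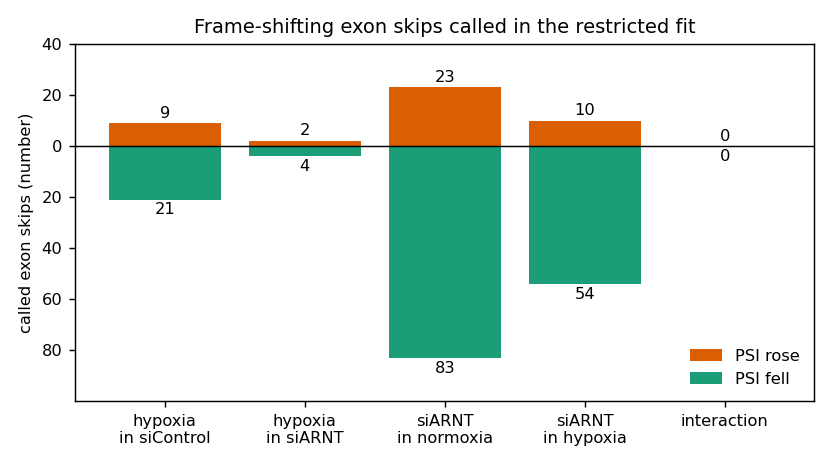
Number of frame-shifting exon skips called in the restricted fit (vertical axis; rises above 0, falls below 0) for the 4 pairs of groups and the interaction. Falls outnumber rises in each pair, 83 to 23 for siARNT in normoxia, and the interaction has none.

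The counts depended on the libraries and on the inclusion junctions. Leaving out 1 library at a time gave 5 to 37 calls for hypoxia in siControl, 2 to 6 for hypoxia in siARNT, 47 to 124 for siARNT in normoxia and 29 to 65 for siARNT in hypoxia. The lowest came without normoxia siControl replicate A, normoxia siARNT replicate C or hypoxia siARNT replicate A (2 each), normoxia siARNT replicate B, and hypoxia siControl replicate A. In 1316 of the 2607 members the 2 inclusion junctions differed more than 3-fold, so that PSI rests mostly on 1 of them. The 1291 members within 3-fold gave 17 calls for hypoxia in siControl, 2 for hypoxia in siARNT, 50 (10 up) for siARNT in normoxia and 36 (6 up) for siARNT in hypoxia. The median PSI of the 2607 members ran from 0.635 to 0.647 in the normoxia siControl libraries, 0.613 to 0.632 in normoxia siARNT, 0.616 to 0.641 in hypoxia siControl and 0.608 to 0.632 in hypoxia siARNT. In normoxia the siControl libraries thus stood above those of siARNT, by 0.635 against 0.632 at the nearest, and in hypoxia the 2 ranges overlapped.

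Of the members called with siARNT in normoxia and in hypoxia, 36 were called in both (34% of the first list and 56.2% of the second). All 36 went in the same direction. These comparisons have no library in common but share the estimate of the spread. Cells were split after transfection, so their libraries may come from the same transfected wells. The 36 are not all separate genes: CENPV, PRRC2C, KRIT1, HPGD, AZIN1, ALDH3A2 and the near-identical NPIPA copies enter more than once. The overlap over all skips in the fit was not counted.

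**Figure D4:**
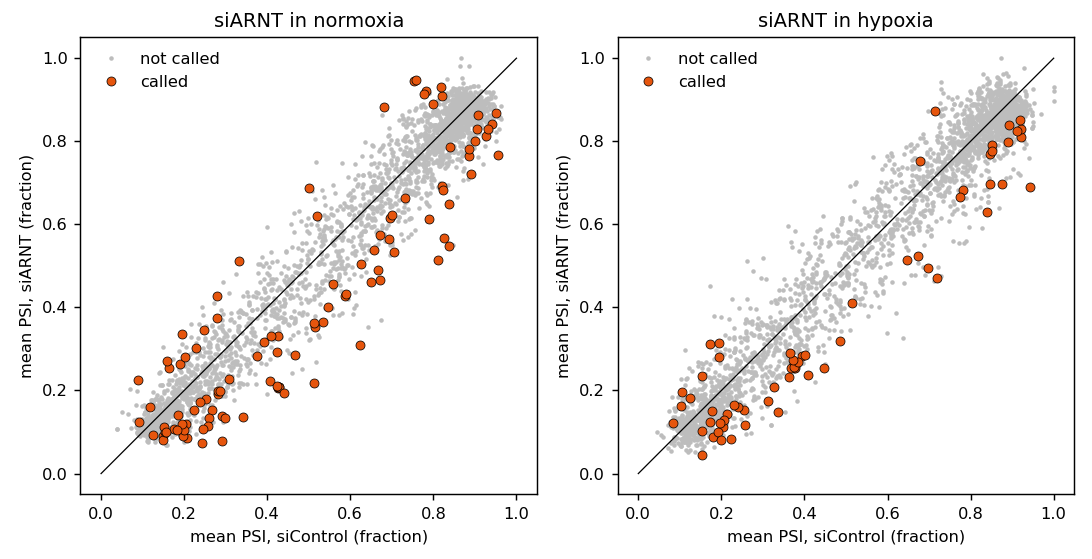
Mean PSI of the 2607 frame-shifting skips of the restricted fit (points) in siControl (horizontal axis, fraction) and siARNT (vertical axis, fraction), in normoxia (left) and hypoxia (right), with called skips in colour. Most called skips lie below the diagonal of equal PSI, 83 of 106 on the left and 54 of 64 on the right.

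An exon of SAT1 fell with siARNT at both oxygen levels. SAT1 encodes spermidine/spermine acetyltransferase, the rate-limiting enzyme of polyamine breakdown. Its 110-nt exon had PSI values of 0.465, 0.477 and 0.457 in normoxia siControl, 0.257, 0.3 and 0.298 in normoxia siARNT, 0.427, 0.433 and 0.482 in hypoxia siControl, and 0.268, 0.249 and 0.247 in hypoxia siARNT. All 6 siARNT libraries were below all 6 siControl libraries. The fall was 0.181 in normoxia (log2 odds of inclusion -1.15, SE 0.14, adjusted p 7.28e-06, edgeR quasi-likelihood test) and under hypoxia it was 0.193 (-1.23, SE 0.17, adjusted p 4.16e-05). Oxygen moved PSI by -0.019 in siControl and -0.031 in siARNT (adjusted p 0.84 and 0.801). The gene's mRNA rose with siARNT by 0.36 and 0.40 on the log2 scale (adjusted p 0.00912 and 0.00246). The junction into the exon had 570 reads over all libraries and the one out of it 1776. No left-out library ended the call in hypoxia (highest adjusted p 0.000738).

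RBM39, a splicing factor related to U2AF, has the 73-nt exon printed above. PSI was 0.435, 0.417 and 0.42 in normoxia siControl, 0.298, 0.278 and 0.305 in normoxia siARNT, 0.43, 0.401 and 0.392 in hypoxia siControl, and 0.251, 0.24 and 0.222 in hypoxia siARNT. Again the siARNT libraries were below every siControl library. The exon fell by 0.13 in normoxia and 0.17 in hypoxia with siARNT (log2 odds -0.83 and -1.15, SE 0.12 each, adjusted p 4.04e-05 and 1.68e-06). RBM39 mRNA was lower by 0.31 on the log2 scale with siARNT in hypoxia (adjusted p 0.011), and its difference in normoxia was -0.19 (adjusted p 0.102).

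PRPF4B encodes a kinase that acts on the spliceosome. The 77-nt exon, annotated in NMD transcripts only (chr6:4062557-4062633 in GRCh38), had PSI values of 0.837, 0.914 and 0.786 in normoxia siControl, 0.804, 0.76 and 0.691 in normoxia siARNT, 0.952, 0.892 and 0.982 in hypoxia siControl, and 0.74, 0.706 and 0.625 in hypoxia siARNT. In hypoxia the groups were far apart, and in normoxia they overlapped. It fell by 0.251 in hypoxia with siARNT (log2 odds -2.89, SE 0.48, adjusted p 0.00046), while the difference in normoxia was -0.094 (adjusted p 0.369). The difference between the 2 did not pass (interaction adjusted p 0.516).

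LUC7L, a component of the U1 snRNP, uses a 64-nt exon in its 5′ UTR. PSI was 0.257, 0.229 and 0.272 in normoxia siControl, 0.153, 0.189 and 0.207 in normoxia siARNT, 0.258, 0.353 and 0.323 in hypoxia siControl, and 0.153, 0.154 and 0.215 in hypoxia siARNT. Both siARNT groups were below their controls without overlap. It fell by 0.137 in hypoxia (log2 odds -1.09, SE 0.22, adjusted p 0.00441), and the normoxia difference of -0.07 had an adjusted p of 0.052. SRSF6, an SR protein, has a 268-nt poison exon whose mean PSI under hypoxia was 0.698 ± 0.061 with siControl and 0.496 ± 0.021 with siARNT (SD, n = 3; log2 odds -1.19, SE 0.27, adjusted p 0.00937). Its 2 inclusion junctions held 26 and 1319 reads, and with the smaller one alone the call was lost (adjusted p 0.516).

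These 4 belong to a list of 74 splicing regulators, of which 34 genes with 65 skips entered the restricted fit. With siARNT in normoxia 3 of the 65 were called and all fell (RBM39, SRSF7 and a 38-nt exon of HNRNPA2B1). In hypoxia 6 fell and 0 rose (RBM39, PRPF4B, LUC7L, SRSF6, a 73-nt exon of HNRNPA2B1 and TIAL1). The inclusion junctions of SRSF7 and of the 38-nt HNRNPA2B1 exon were 545.56-fold and 1633.84-fold apart, so their PSI rests on 1 junction. Those of SRSF6, TIAL1 and the 73-nt HNRNPA2B1 exon were 50.73-fold, 5.56-fold and 4.51-fold apart. Called shares of the list were 4.62% and 9.23%, beside 4.79% and 2.84% of all skips in the fit, so the count in normoxia is near the background. The median difference over the list was -0.024 and -0.0261, beside -0.0082 and -0.0072 over all 2607 members. For hypoxia in siControl and in siARNT, 0 of the 65 were called by edgeR. The list was chosen with earlier results of these data known.

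Rises with siARNT were fewer. TFPI, the tissue factor pathway inhibitor of coagulation, has a 122-nt exon in its 5′ UTR with PSI values of 0.222, 0.232 and 0.235 in normoxia siControl, 0.28, 0.33 and 0.3 in normoxia siARNT, 0.188, 0.198 and 0.199 in hypoxia siControl, and 0.276, 0.303 and 0.361 in hypoxia siARNT. Every siARNT library was above every siControl library. The rise was 0.074 in normoxia (log2 odds 0.54, SE 0.13, adjusted p 0.0119) and under hypoxia it was 0.118 (0.89, SE 0.14, adjusted p 0.000154). The 116-nt exon of AHSA2P, a transcribed pseudogene, behaved alike in direction, with group means of 0.248, 0.346, 0.173 and 0.312 in the order of groups above and rises of 0.098 and 0.139 (adjusted p 0.011 and 0.000154). It also fell by 0.076 with hypoxia in siControl (adjusted p 0.0364).

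In normoxia, STX16, a SNARE protein of traffic to the Golgi, gained inclusion of a coding exon of 163 nt. Its PSI was 0.299, 0.235 and 0.306 in siControl and 0.379, 0.496 and 0.41 in siARNT, a rise of 0.148 without overlap (log2 odds 0.90, SE 0.19, adjusted p 0.00457). Skipping this exon leaves 132 of 325 codons. In hypoxia the group means were 0.371 and 0.366. The exon of PPP1R12B, a regulatory subunit of myosin phosphatase, had 0.75, 0.882 and 0.882 in normoxia siControl and 0.475, 0.559 and 0.61 in normoxia siARNT, and fell by 0.29 (log2 odds -2.0, SE 0.52, adjusted p 0.0239). Its PSI in hypoxia was 0.455, 0.588 and 0.609 in siControl and 0.514, 0.538 and 0.545 in siARNT, so only normoxia siControl had libraries above 0.61. The call for siARNT in normoxia was lost without normoxia siControl replicate B or C or normoxia siARNT replicate A or B (adjusted p up to 0.102).

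Other falls with siARNT in normoxia were in RFC5 (59 nt, by 0.315), a subunit of the clamp loader of DNA replication, TRIM25 (131 nt, by 0.295), a ubiquitin ligase of antiviral signalling, EML6 (158 nt, by 0.257), LY6E (116 nt, by 0.245) and NPIPA5 (70 nt, by 0.222). The first 4 lost their calls when 1 of 2 to 4 libraries was left out (adjusted p up to 0.238). Inclusion junctions of RFC5, TRIM25 and EML6 were 11.74-fold, 7.73-fold and 13.11-fold apart. Mean reads per library of these exons were 20.2, 36.9 and 32.2, with RFC5 near the limit of 20. Rises were in ANKRD36 (71 nt, 0.203), NPIPB12 and NPIPB13 (338 nt each, 0.192 and 0.188), the adherens junction protein CTNND1 (289 nt, 0.186) and NRCAM (59 nt, 0.141). NPIPA5, NPIPB12, NPIPB13 and ANKRD36 belong to families of near-identical copies, whose reads could be split between copies, so they are uncertain. Among these rises, the calls of NPIPB12 and NPIPB13 were lost without normoxia siControl replicate C (adjusted p 0.0612 and 0.0623), and those of ANKRD36, CTNND1 and NRCAM without any 1 of 3, 4 and 5 libraries (up to 0.128, 0.222 and 0.169). In CTNND1 the inclusion junctions held 34 and 941 reads, and the direction reversed with the smaller one (log2 odds -0.84, adjusted p 0.755). Those of NPIPB12 and NPIPB13 were 10.45-fold and 10.7-fold apart.

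POLB, the polymerase of base excision repair, was the only called gene among the 17 in the restricted fit from a chosen list of DNA repair and cell cycle genes, which does not hold RFC5, RAD54B or NABP1. The 58-nt coding exon had PSI values of 0.688, 0.597 and 0.663 in normoxia siControl and 0.511, 0.415 and 0.462 in normoxia siARNT, and fell by 0.187 without overlap (log2 odds -1.11, SE 0.29, adjusted p 0.0216). Skipping it leaves 26 of 335 codons. The call was lost without normoxia siControl replicate A or C or normoxia siARNT replicate B or C (adjusted p up to 0.145). In hypoxia the difference was -0.144 (adjusted p 0.268). NDUFS1 of respiratory complex I rose by 0.091 with siARNT in normoxia at a 65-nt exon (adjusted p 0.0115), whose inclusion junctions held 205 and 2728 reads. That call was lost without normoxia siControl replicate A or normoxia siARNT replicate A or B (adjusted p up to 0.101), and with the smaller junction (log2 odds 0.16, adjusted p 0.95). The apoptosis and p53 list (10 genes with 17 skips in the fit), the chromatin list (18 and 25), the HIF pathway list (4 and 7) and the NMD list (5 and 7) had 0 called members in any comparison by edgeR.

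With siARNT in hypoxia, further named falls were in LRR1 (722 nt, by 0.247), ANKRD36 (73 nt, by 0.209) and RAD54B (128 nt, by 0.187), a helicase of homologous recombination, and a rise was in WWP1 (67 nt, 0.158), a ubiquitin ligase. LRR1 lost its call without any 1 of 9 libraries and ANKRD36 without any of the 12 (adjusted p up to 0.242 and 0.175), RAD54B without hypoxia siControl replicate A (0.0646), and WWP1 without hypoxia siControl replicate A or hypoxia siARNT replicate A (up to 0.0717). The WWP1 and RAD54B junctions were 40 and 1604 reads, and 63 and 346 reads.

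Hypoxia in siControl cells raised the NABP1 exon. NABP1 is a single-stranded DNA binding protein of the DNA damage response. PSI was 0.22, 0.248 and 0.227 in normoxia siControl, 0.205, 0.26 and 0.23 in normoxia siARNT, 0.383, 0.399 and 0.37 in hypoxia siControl, and 0.249, 0.257 and 0.298 in hypoxia siARNT. The hypoxia siControl libraries were above all 9 others. The rise in siControl was 0.153 (log2 odds 1.05, SE 0.17, adjusted p 0.00156), and siARNT lowered it in hypoxia by 0.116 (-0.79, SE 0.18, adjusted p 0.0118). Hypoxia in siARNT cells gave 0.036 (adjusted p 0.718), but the difference between the siRNAs did not pass (interaction log2 odds -0.78, SE 0.26, adjusted p 0.516). The inclusion junctions held 292 and 1110 reads, and with the smaller one the rise had an adjusted p of 0.802. NABP1 mRNA rose by 0.48 on the log2 scale with hypoxia in siControl (adjusted p 0.00331).

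UGP2, which makes UDP-glucose for glycogen, had group means of 0.15, 0.081, 0.257 and 0.118 at a 146-nt exon. It rose by 0.107 with hypoxia in siControl (adjusted p 0.00682) and fell by 0.069 and 0.139 with siARNT in normoxia and hypoxia (adjusted p 0.00628 and 0.000136). Its inclusion junctions held 18 and 926 reads, and the first of these calls was lost without normoxia siControl replicate A (0.0887). NRCAM and the tight junction protein TJP1 (139 nt) also rose, by 0.199 and 0.141. NRCAM lost this call without any 1 of 5 libraries and TJP1 without any 1 of 6 (adjusted p up to 0.156 and 0.254). With the smaller TJP1 junction, of 11 reads against 2141, the direction reversed (log2 odds -2.83, adjusted p 0.732).

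Hypoxia in siControl also lowered an exon of GPR35, a G protein-coupled receptor. The 55-nt exon, which matched no annotated structure, had PSI values of 0.537, 0.554 and 0.536 in normoxia siControl, 0.482, 0.495 and 0.454 in normoxia siARNT, 0.415, 0.396 and 0.454 in hypoxia siControl, and 0.441, 0.426 and 0.403 in hypoxia siARNT. The normoxia siControl libraries were the highest of the 12. It fell by 0.121 (log2 odds -0.70, SE 0.13, adjusted p 0.0038), with 2231 and 2040 reads on the inclusion junctions, and no left-out library ended the call (highest adjusted p 0.0421). TPM2, the beta tropomyosin of actin filaments, had group means of 0.416, 0.39, 0.31 and 0.353 at a 76-nt exon, and fell by 0.106 (adjusted p 0.00316). The inclusion junctions held 15380 and 1425 reads, and the neighbouring exon of this skip is another 76-nt exon of the gene.

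**Figure D5:**
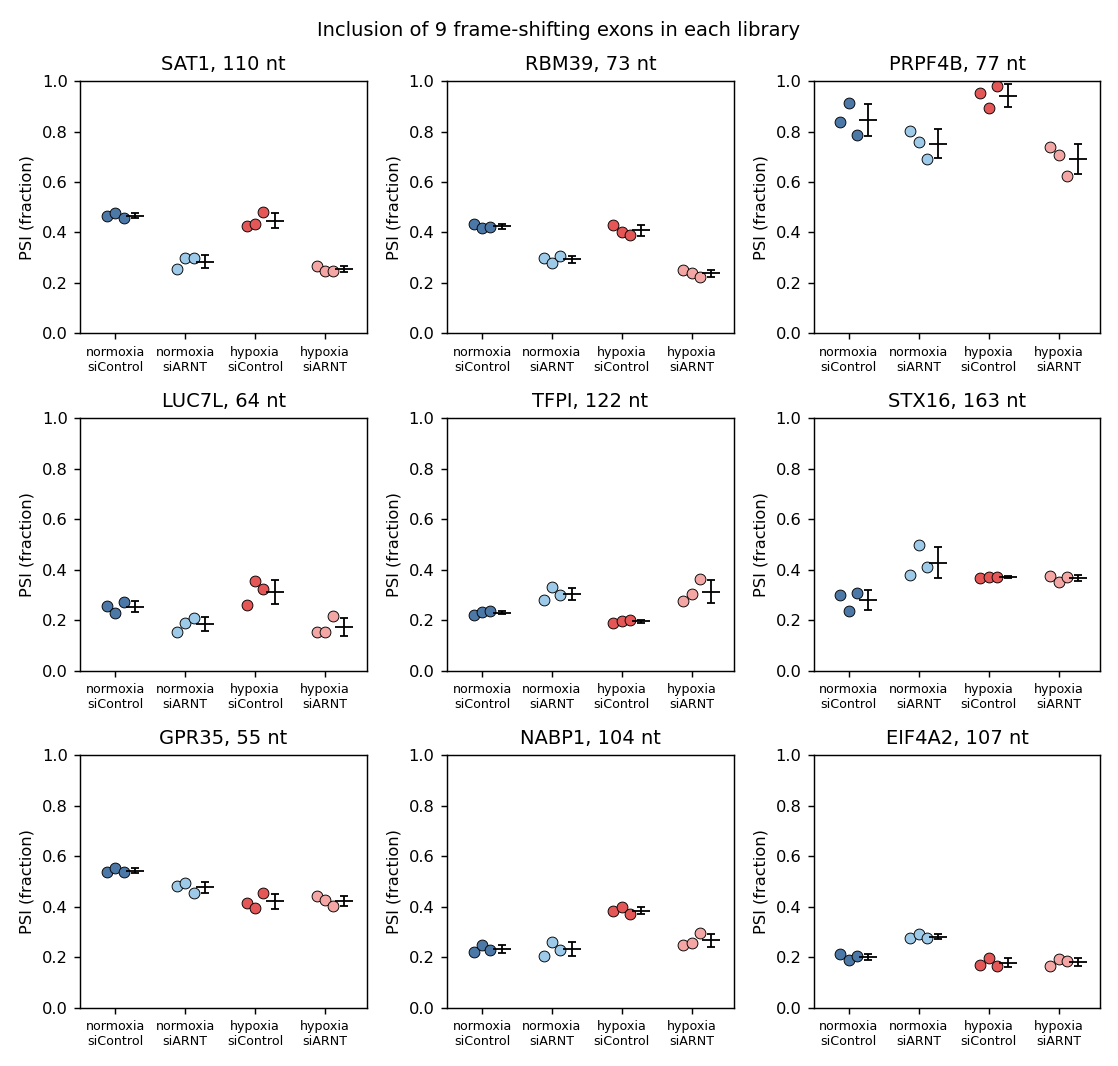
PSI (vertical axis, fraction) of 9 frame-shifting exons in each library (points) by group, with the group mean and SD of 3 libraries beside them. SAT1 and RBM39 are lower in all siARNT libraries, TFPI is higher in them, and NABP1 is highest in the 3 hypoxia siControl libraries, from 0.37 to 0.399.

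ZFAND4, a zinc finger protein, had the largest fall among the exons called for hypoxia in siControl. PSI was 0.768, 0.755 and 0.869 in normoxia siControl and 0.455, 0.52 and 0.5 in hypoxia siControl, a fall of 0.306 without overlap (log2 odds -2.02, SE 0.51, adjusted p 0.0426), at a mean of 25.0 reads per library. The siARNT groups lay between, at 0.689 ± 0.103 in normoxia and 0.614 ± 0.067 in hypoxia (SD, n = 3). LETMD1, a mitochondrial membrane protein, had 5 called skips, all lower, among them one of 49 nt with 0.377, 0.307 and 0.389 in normoxia and 0.169, 0.219 and 0.136 in hypoxia (a fall of 0.183, adjusted p 0.0038). The 5 are not separate, as an 83-nt exon enters in 2 skips and the 49-nt exon lies inside it. Inclusion junctions of the 116-nt skip, the 259-nt skip and 1 of the 83-nt skips were 5.61-fold, 37.8-fold and 9.03-fold apart. Both 83-nt skips also fell with siARNT in normoxia, by 0.184 and 0.188 (edgeR, adjusted p 0.00396 and 0.00256). Falls of 0.164, 0.113 and 0.102 were in the ubiquitin ligase SMURF1 (58 nt), the glycan-removing enzyme NGLY1 (62 nt) and the choline transporter-like SLC44A5 (74 nt). The ZFAND4, SMURF1, NGLY1 and SLC44A5 calls were lost without any 1 of 9, 7, 8 and 5 libraries (adjusted p up to 0.214, 0.329, 0.243 and 0.302) and that of LETMD1 without normoxia siControl replicate A (0.051). NGLY1, with 15 and 1284 reads on its inclusion junctions, reversed with the smaller one (log2 odds 0.23, adjusted p 0.994).

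In siARNT cells hypoxia lowered the EIF4A2 exon. EIF4A2 is an RNA helicase of the translation initiation complex. PSI was 0.213, 0.189 and 0.203 in normoxia siControl, 0.278, 0.292 and 0.275 in normoxia siARNT, 0.171, 0.198 and 0.166 in hypoxia siControl, and 0.164, 0.193 and 0.186 in hypoxia siARNT. The 3 normoxia siARNT libraries stood above the other 9. Hypoxia lowered it by 0.101 in siARNT (log2 odds -0.83, SE 0.11, adjusted p 0.00021) and siARNT raised it by 0.08 in normoxia (0.63, SE 0.11, adjusted p 0.000637); both use the normoxia siARNT libraries. The inclusion junctions of this 107-nt exon were 4.03-fold apart. EIF4A2 mRNA was lower by 0.39 on the log2 scale with siARNT in normoxia (adjusted p 0.00847). A 140-nt coding exon of the same gene rose with hypoxia in siARNT, by 0.049 (adjusted p 0.0468).

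The other calls for hypoxia in siARNT were a rise in THYN1 (151 nt, 0.101) and falls in EPB41L1 (191 nt, by 0.227), WSB1 (176 nt, by 0.129) and MYOF (425 nt, by 0.077), a membrane repair protein. THYN1 lost its call without any 1 of 5 libraries (adjusted p up to 0.211), WSB1 without normoxia siARNT replicate C or hypoxia siARNT replicate A (up to 0.111) and EPB41L1 without hypoxia siARNT replicate C (0.137). MYOF also fell by 0.086 with hypoxia in siControl (adjusted p 0.00524), and was the 1 member called in both oxygen comparisons. Its inclusion junctions differed 1150.2-fold, so its PSI rests on 1 of them. Those of WSB1, EPB41L1 and THYN1 differed 23.52-fold, 4.88-fold and 1.37-fold.

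No interaction was called in the restricted fit by edgeR: 0 of 2607 members, with 187 at an unadjusted p under 0.05 (351 of all 4865 skips in the fit). No exon in that fit was thus shown to respond to oxygen differently with and without siARNT. The ARPC1B and RPL10 interactions of the first test rest on a group with no skipping read, and what sets those junctions to 0 was not tested.

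Called members were also counted by predicted frame. Of the 299 members in the restricted fit whose inclusion gives an early stop, 17 fell and 2 rose with siARNT in normoxia, and 12 fell and 1 rose in hypoxia. Of all skips in the fit, 3.6% fell and 1.19% rose in normoxia, and 2.22% and 0.617% in hypoxia. Of the 443 whose skipping gives an early stop, 6 fell and 4 rose in normoxia, and 3 fell and 0 rose in hypoxia. Falls of exons of the first kind were in 15 and 12 genes. With siARNT in normoxia the mRNA rose in 2 of the 15, fell in 3 and was not called in 10 (9.42% of all genes rose and 10.8% fell). In hypoxia it rose in 6 of the 12, fell in 4 and was not called in 2 (14.4% and 14.7% of all genes). Whether these shares differ from those of other members was not tested.

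Genes of the NMD pathway and the exon junction complex were also measured at the mRNA level. Of 27 tested, 3 were called with siARNT in normoxia (11.1%, beside 20.2% of all genes) and 7 with siARNT in hypoxia (25.9%, beside 29.1%). Hypoxia called 7 in siControl (25.9%, beside 25.3%) and 2 in siARNT (7.41%, beside 4.09%). The shares for hypoxia in siControl and for siARNT in hypoxia are thus near those of all genes. With hypoxia in siControl, MAGOHB fell by 0.56, MAGOH by 0.45 and EIF4A3 by 0.29 on the log2 scale (adjusted p 0.000223, 0.000159 and 0.00135); all are core proteins that mark exon junctions. With siARNT in hypoxia these 3 rose by 0.50, 0.27 and 0.27 (adjusted p 0.00034, 0.0036 and 0.00172). Both comparisons use the hypoxia siControl libraries. Of the list's called genes, 1 rose and 6 fell with hypoxia in siControl. With siARNT in hypoxia 5 rose and 2 fell. SMG6 rose by 0.36 in the first (edgeR, adjusted p 0.0278). SMG8 and SAP18 fell by 0.22 and 0.16 in the second (edgeR, adjusted p 0.0202 and 0.0225). CASC3, also of the exon junction complex, was called in neither (edgeR, adjusted p 0.136 and 0.406). RBM8A is not among the 27 genes tested.

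The deepest members of intermediate PSI rested mostly on 1 inclusion junction or came from genes with many copies. RPL26 (580 nt) had group means of 0.778 to 0.803, an exon of the unnamed gene ENSG00000263809 (119 nt) that overlaps RPL26 of 0.771 to 0.783, and HNRNPA2B1 (136 nt) of 0.698 to 0.732. The inclusion junctions of these 3 were 92.9-fold or more apart. FTH1, the ferritin heavy chain (46 nt), ranged from 0.481 to 1.0 between libraries, and 4 of the 12 had a PSI of 1.0. RPL26 and FTH1 have many processed copies, so their reads are uncertain. These 4 were not in the restricted fit. The siControl and siARNT libraries in normoxia did not overlap for RPL26 and HNRNPA2B1, as in 15.5% of all skips of the first test. Neither exon was called in that test.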

How the data were processed

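RNA from AsPC-1 cells was sequenced as stranded, poly(A)-selected single-end reads in 12 libraries, per the labels' protocols. The submitters' processing notes name Trimmomatic, STAR 2.4.2a and GRCh38.p10. The authors deposited counts of reads per gene and, per exon skip, junction counts with PSI as a fraction. The caller of the skips is not given in the sources used here. Only 0.47% of exons lie at their GRCh38 position, and event coordinates were not converted. They served only for exon and intron lengths and to tell exons apart. PSI recomputed from the counts matched the deposited fraction in 100.0% of values within 0.005.

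Inclusion (rounded mean of 2 junctions) and skip counts were fitted together with edgeR 4.0.16 (R 4.3.3), quasi-likelihood test, Benjamini-Hochberg adjustment over all skips in the fit, called under 0.05. Log2 odds are of inclusion. Gene counts were tested with the same tool. Summary lines that name no gene (22.71 to 25.2% of the counts) were left out. Depth was 38.53 to 84.34 M gene counts per library, and intervals cover counting error only. The restricted fit was added after seeing the data. Limma 3.58.1, DESeq2 1.42.0, other filters, replicate blocks and left-out libraries were alternatives. Scripts were tested on simulated data, with changes of 1 and 2 log2 odds planted in a separate set of skips for each run. The fit over all skips recovered 0% of either size with each skip's own spread. With 1 spread for all skips it recovered 4% and 42%. The restricted fit recovered 32% and 78%. Few calls in the fit over all skips thus do not show that exons were unchanged. Named were called exons with a PSI difference of at least 0.1 and groups that do not overlap, 1 per gene (up to 12 rises and 12 falls for hypoxia in siControl, 6 and 6 elsewhere), up to 4 called exons per gene list, and the 5 deepest exons of PSI 0.2 to 0.8, of which 1 is not reported here. No exon called in the fit over all skips reached that difference, so the first 2 parts were applied to the restricted fit. ARPC1B, RPL10, MYOF, SRSF7, TIAL1 and the 140-nt exon of EIF4A2 were named, and the RBM39 sequence shown, after their values were seen. The members and lists were chosen with earlier results of these data known.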

Additional observations from a re-analysis of the deposited data

Results flagged for a closer look

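An interaction of oxygen and siRNA was called for the ARPC1B exon in the test over all skips. The interaction had log2 odds of -9.13 (edgeR quasi-likelihood test, adjusted p 0.000233), a value set by the 3 hypoxia siControl libraries with 0 skipping reads and therefore no measure of size. The RPL10 exon had an interaction of 9.13 (adjusted p 1.16e-05) in the same test, set by the 3 normoxia siControl libraries at 0. Neither exon could enter the restricted fit.

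The NDUFS1 exon of 65 nt had a higher PSI with hypoxia in siControl and a lower one with hypoxia in siARNT, without overlap in either pair, and the PSI changes differed by -0.138. The interaction did not pass (edgeR, restricted fit, adjusted p 0.439). The STX16 exon of 163 nt had the same pattern with a difference of -0.153, and its interaction did not pass either (adjusted p 0.516).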

How the results depend on the processing

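Counts are given first for hypoxia (in siControl, then in siARNT), then for siARNT (normoxia, then hypoxia), then for the interaction. The fit over all tested skips called 2, 0, 1, 1 and 2 frame-shifting exons, and DESeq2 called 25, 17, 58, 47 and 18. Limma called 1 for hypoxia in siARNT and 3 for siARNT in hypoxia. With only the samples compared, the counts were 11 for hypoxia in siControl, 4 for siARNT in normoxia and 0 for siARNT in hypoxia. The smaller inclusion junction gave 1 for hypoxia in siControl, 0 for siARNT in normoxia and 1 for the interaction, and junctions within 3-fold gave 1, 0 and 1 for the same. No call had a PSI difference of at least 0.1 (0 in each comparison). Leaving out skips with an unexpected 0 gave 1, 1, 18, 12 and 0, and the restricted fit 30, 6, 106, 64 and 0. Left-out libraries gave 2 to 5, 0 to 4, 1 to 3, 1 to 5 and 2 to 6.

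Within the restricted fit, the smaller inclusion junction gave 7, 1, 29 and 20 calls in the first 4 comparisons, limma 0, 0, 19 and 16, and no minimum share of the rarer form 1, 1, 18 and 12. Junctions within 3-fold left 17, 2, 50 and 36. DESeq2 called 13 for hypoxia in siControl and 47 for siARNT in normoxia. Keeping skips with an unexpected 0 gave 10 for hypoxia in siControl, 2 for hypoxia in siARNT and 44 for siARNT in normoxia. A share of at least 5% gave 17 for hypoxia in siControl, and only the samples compared gave 2 for hypoxia in siARNT. PSI differences of at least 0.1 numbered 15, 63 and 35 for hypoxia in siControl and for siARNT under normoxia and under hypoxia. Left-out libraries gave 5 to 37, 2 to 6, 47 to 124, 29 to 65 and 0 to 0. The causes were not tested.

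Of 40 calls of named exons, 24 were lost with the smaller inclusion junction and 3 reversed: TJP1 (-2.83), NGLY1 (0.23) and CTNND1 (-0.84). Limma kept 8 of the 40.

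Libraries with the same letter did not deviate together (r from -0.063 to 0.139 over 18 pairs). For the same siRNA and letter, r ran from -0.045 to 0.05. Cells were split after transfection, and this correlation cannot tell whether such libraries came from the same well. With the letter as a replicate block, the restricted fit called 40, 5, 131, 68 and 0, and the fit over all skips 3, 0, 2, 1 and 3. With the well as a replicate block the interaction over all skips had 1 call. For the NMD and exon junction list, the block gave 6 called genes for siARNT in normoxia and DESeq2 gave 5. RLE scaling gave 1 for hypoxia in siARNT. Without a low-count filter 0, 0 and 4 were called for hypoxia in siARNT and for siARNT under normoxia and under hypoxia. Left-out libraries gave 5 to 9, 0 to 2, 1 to 4, 4 to 9 and 0 to 0.

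Exons near full inclusion or skipping have few reads of the rarer form, and differences there were often not detectable at this depth.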
